A study of Mus musculus with 111 samples.

Results

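RNA-seq counts of the genes that encode the receptors for GABA and glutamate were followed across the day in the tuberomammillary nucleus (TMN) of the mouse, the posterior hypothalamic site of the histamine-producing neurons. The genes were taken by name: subunits of GABA-A receptors (Gabra, Gabrb, Gabrd, Gabre, Gabrg, Gabrp, Gabrq and Gabrr genes), both GABA-B subunits (Gabbr), the ionotropic glutamate receptor subunits of the AMPA (Gria), kainate (Grik), delta (Grid) and NMDA (Grin) classes, and the metabotropic glutamate receptors (Grm). They came to 47 of the 54087 gene names counted. The rule used names and no measured value, but it was set with earlier results of these data known.

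The mice were adult C57BL/6J animals of both sexes under a 12 h light and 12 h dark cycle, in which zeitgeber time (ZT) 0 is lights on. Each had received bilaterally into the TMN 1 of 3 adeno-associated viruses (AAVs): an empty vector that carried GFP alone, wild-type histone H3.3 with GFP, or H3.3(Q5A) with GFP, in which glutamine 5 of the histone is replaced by alanine, so that the added histone cannot be monoaminylated there. GFP-marked TMN tissue was dissected 21 days later at ZT0, 4, 8, 12, 16 or 20, and 1 library stood for 1 animal. After a pair of libraries that differed by 6 reads was merged there were 32 GFP, 39 H3.3 and 39 Q5A libraries, with 4 to 8 in each group of virus and ZT, and the 71 GFP and H3.3 libraries served together as controls. The labels place the libraries in 3 cohorts, of which cohort 1 is the largest. All groups kept their own histone genes, and the libraries hold every cell type of the dissected tissue, transduced or not. Gene rows held 673306 to 3375352 reads per library (median 1474422), which was 3.49% to 5.63% of the uniquely placed reads.

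GABA and glutamate carry most fast inhibition and excitation in the brain. GABA-A receptors are pentamers, usually of alpha and beta subunits with a gamma or a delta subunit, and open a chloride channel. Those with delta, often partnered by alpha 4, sit outside synapses and give the tonic inhibition typical of thalamic relay cells. GABA-B receptors are obligate pairs of both subunits that act through G proteins. AMPA, kainate and NMDA receptors are tetrameric cation channels, of which NMDA receptors need the Grin1 subunit, and the metabotropic receptors act through G proteins at and around synapses. The histamine neurons of the TMN fire in wakefulness and are silenced by GABA input in sleep.

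Of the 47 genes, 41 had a mean of at least 1 read per library and passed the filter of the test over ZT in the controls, and the remaining 6 (Gabra6, Gabrp, Gabrr1, Gabrr2, Gabrr3 and Grm6) had means under 1. The 41 were 14 of 19 GABA-A genes, both GABA-B genes, all 4 AMPA, 5 kainate, 2 delta and 7 NMDA genes, and 7 of 8 metabotropic genes. The 47 together took 630 to 5690 reads per library (median 1348), or a median of 0.0962% of the gene reads. Means per library were under 10 reads for 17 of them and at least 50 for 8. The kit gives first reads that run against the mRNA, while the counting kept first reads that run with it. The rows thus hold reads of the orientation opposite to that of the mRNA, and most reads were left out. Each value below is the count of the row as deposited, and whether the order of rows is that of the mRNA levels was not tested. Of the 47 rows 14 share exon sequence with a gene on the other strand. Grin3b had the largest share among the abundant rows, 32.1% of its exon length under Tmem259, followed by Grin1 with 13.5% under Grin1os and Grin2d with 9.66% under Gm45441. Given the orientation counted, RNA of the gene on the other strand can add reads to such a row over the shared sequence. How much of these counts came from it was not tested.

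The rows were led by a few subunits of each class. Gabbr1, the subunit of the GABA-B pair that binds GABA, had the most reads, a mean of 196 per library (median 162.5). Gabbr2, which carries the G protein coupling, had 88.6. Set against length, in normalised counts per kilobase of exon, Grin3b stood at 45.8, Gabbr1 at 22.7, Gria1 at 15.8, Gabra5 at 15.7, Grin1 at 13.7, Gabbr2 at 12.1 and Grin2d at 11.9. Gria1, the AMPA subunit with the most reads, had 108 per library, and Gria2, the subunit that makes AMPA receptors impermeable to calcium, had 45.6. The NMDA rows with the most reads were Grin3b (157), Grin1 (146) and Grin2d, a subunit of slow deactivation (82.6), each with the overlap given above. Grin2b had 25.8 and Grin2a, a subunit of mature forebrain receptors, had 7.04. Among the GABA-A genes Gabra5 had 48.7 reads, Gabrb1 40.9 and Gabrg3, a gamma subunit, 22.7. Gabrq and Gabre, the theta and epsilon subunits found mainly in hypothalamic and brainstem nuclei, had 11.4 and 9.15, and Gabrd had 3.24, with 58 of 110 libraries at 0 and a highest count of 45. The kainate genes were led by Grik5 (63.5) and the metabotropic genes by Grm5 (26.1), and the delta receptor gene Grid1 had 24.3.

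**Figure D1:**
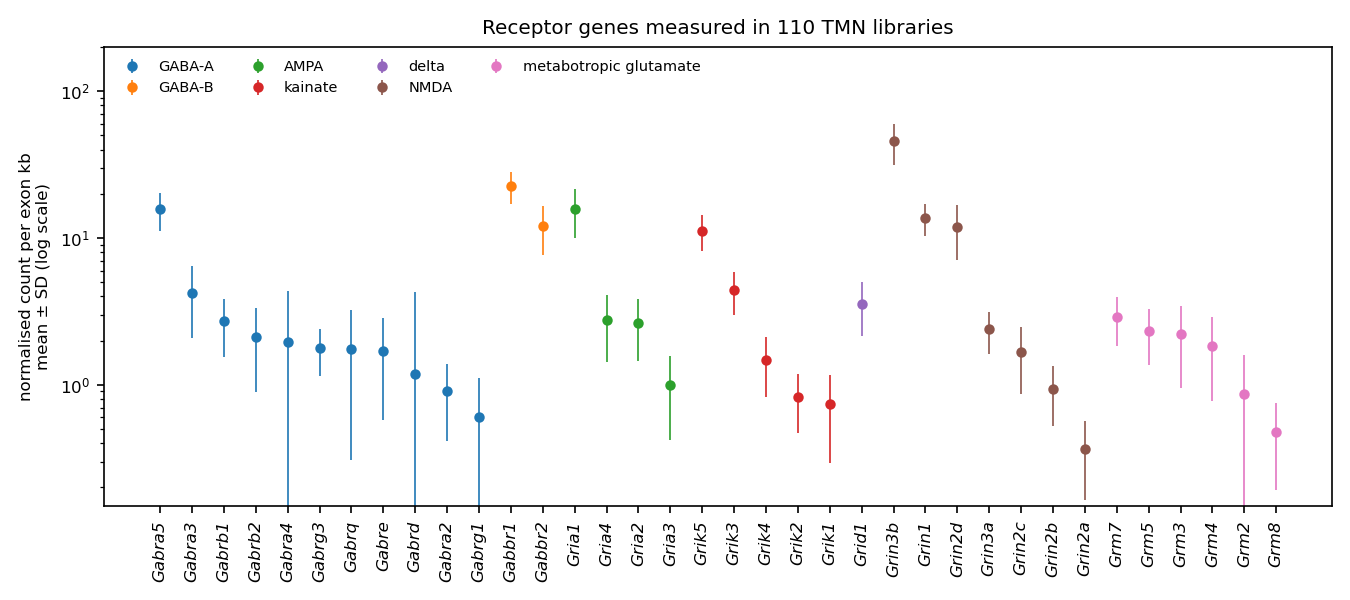
Mean normalised count per kilobase of exon (log axis) of 36 of the receptor genes with at least 1 read per library, over 110 libraries; bars are 1 SD between libraries and are cut off at the lower edge where the SD is near or above the mean. Grin3b at 45.8, a row that overlaps Tmem259 on the other strand, and Gabbr1 at 22.7 are the highest points. The colours mark the receptor class.

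The tissue itself was checked by marker rows fixed for other cell types. Of the 6 markers of histaminergic neurons none had a median of 0 reads and 2 had medians of 10 or more (Slc18a2, 90, and Hrh3, 16), while Hdc, the histamine-forming enzyme, had a median of 4 reads and was at 0 in 11 libraries. Neuronal, astrocyte and oligodendrocyte markers (5, 6 and 6 genes) all had medians of 10 reads or more. Striatal or pituitary rows stood far above the rest in 4 libraries, all of cohort 1, which were left out in turn as an alternative: GFP ZT12 replicate 3, H3.3 ZT12 replicate 1, Q5A ZT20 replicate 3 and Q5A ZT16 replicate 3. A set of thalamic marker rows, added after the values of the receptor genes were seen, is described with the result it touches.

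The first question was whether any receptor gene varied with time of day in the control animals. Of the 41 genes 6 did, at an adjusted p under 0.05 in the edgeR quasi-likelihood test over the 6 ZT, against 5.00% of the 13264 genes tested. They were Gabrd (adjusted p = 7.66e-06), Gabra4 (1.12e-05), Grin2b (0.00121), Gabbr2 (0.0051), Gabrb1 (0.0304) and Grm4 (0.0407), and each had its highest mean at ZT20, late in the dark phase. At an unadjusted p under 0.05 there were 17 of the 41 (41.5%), where all genes had 24.6%. DESeq2 called 7, with the same 6 among them. Fewer cells of a type and less RNA per cell cannot be told apart in this tissue, here or in any later comparison.

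Gabrd encodes the delta subunit of extrasynaptic GABA-A receptors (chromosome 4, 155384980 to 155398112, minus strand, GRCm38). Its normalised count in controls, from ZT0 every 4 h to ZT20, was 4.85 ± 4.37, 0.496 ± 0.9, 0.251 ± 0.643, 3.67 ± 9.07, 1.29 ± 1.64 and 16.03 ± 21.2 (mean ± SD, n = 9, 11, 13, 13, 14 and 11). The SD at ZT20 was larger than the mean, since the 11 libraries ran from 0 to 68 around a median of 4.42, and the groups overlapped at every ZT. Without the ZT20 libraries Gabrd did not pass the filter of the test, so its place in the test depended on the time of its highest values. In Q5A the means were 3.1, 1.04, 0.929, 0.308, 1.34 and 6.47 from ZT0 to ZT20, and the 6 libraries at ZT20 ran from 0 to 20.5.

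Gabra4, the alpha 4 subunit that pairs with delta, lies on chromosome 5 (71569749 to 71658308, minus strand). It stood at 11.4 ± 9.78, 6.7 ± 4.01, 7.73 ± 4.94, 13.4 ± 12.7, 5.48 ± 2.53 and 34.0 ± 31.5 from ZT0 to ZT20 in controls. At ZT20 the lowest, median and highest libraries were 4.91, 19.5 and 98.2, so the lower part of that group lay within the other times. In Q5A the highest means were at ZT0 (18.4 ± 17.7, n = 6) and ZT20 (16.7 ± 10.3, n = 6), and the means at the other ZT ran from 5.89 to 7.97.

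Gabrb1, the beta 1 subunit, is the neighbour of Gabra4 (71658113 to 72149037, plus strand) and is transcribed in the opposite direction. The pair shares 46 exon bases at its starts, which lie 387 bases apart by the RefSeq start sites (a separate annotation from these gene positions). Its control means were 29.6 ± 9.76, 33.8 ± 7.93, 28.2 ± 10.6, 41.4 ± 18.3, 36.6 ± 13.7 and 53.3 ± 26.6 from ZT0 to ZT20, with 27.8, 38.5 and 106 as lowest, median and highest at ZT20. The ZT20 median was the highest of all times, with medians of 36.2 at ZT12 and 36.85 at ZT16 close below it. Q5A means ran from 35.6 to 40.9 with no ZT apart from the rest.

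Grin2b, the NMDA subunit with slow kinetics (chromosome 6, 135713233 to 136173511, minus strand), had control means of 22.5 ± 5.92, 22.9 ± 7.37, 18.2 ± 6.41, 27.7 ± 13.9, 16.2 ± 5.67 and 35.9 ± 14.4 from ZT0 to ZT20. Its ZT20 libraries were spread from 16.9 to 68.4 around a median of 35.4, and 1 of them lay above the highest library of the other times (62.2). In Q5A the means ran from 20.6 to 26.4, with the highest at ZT8.

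Gabbr2 (chromosome 4, 46662305 to 46991873, minus strand) stayed between 66.7 and 76.4 at ZT0 to ZT16 in controls and stood at 122 ± 55 at ZT20, with 65.4, 109 and 233 as lowest, median and highest. Q5A means were 75.1 to 88.7, and the lowest of them was that of ZT20. Grm4, a presynaptic metabotropic receptor that couples to Gi (chromosome 17, 27422387 to 27521403, minus strand), had control means of 13.2 ± 6.42, 7.68 ± 2.9, 9.46 ± 4.59, 11.5 ± 6.69, 8.47 ± 4.51 and 17.9 ± 10, and Q5A means of 8.13 to 13.1.

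**Figure D2:**
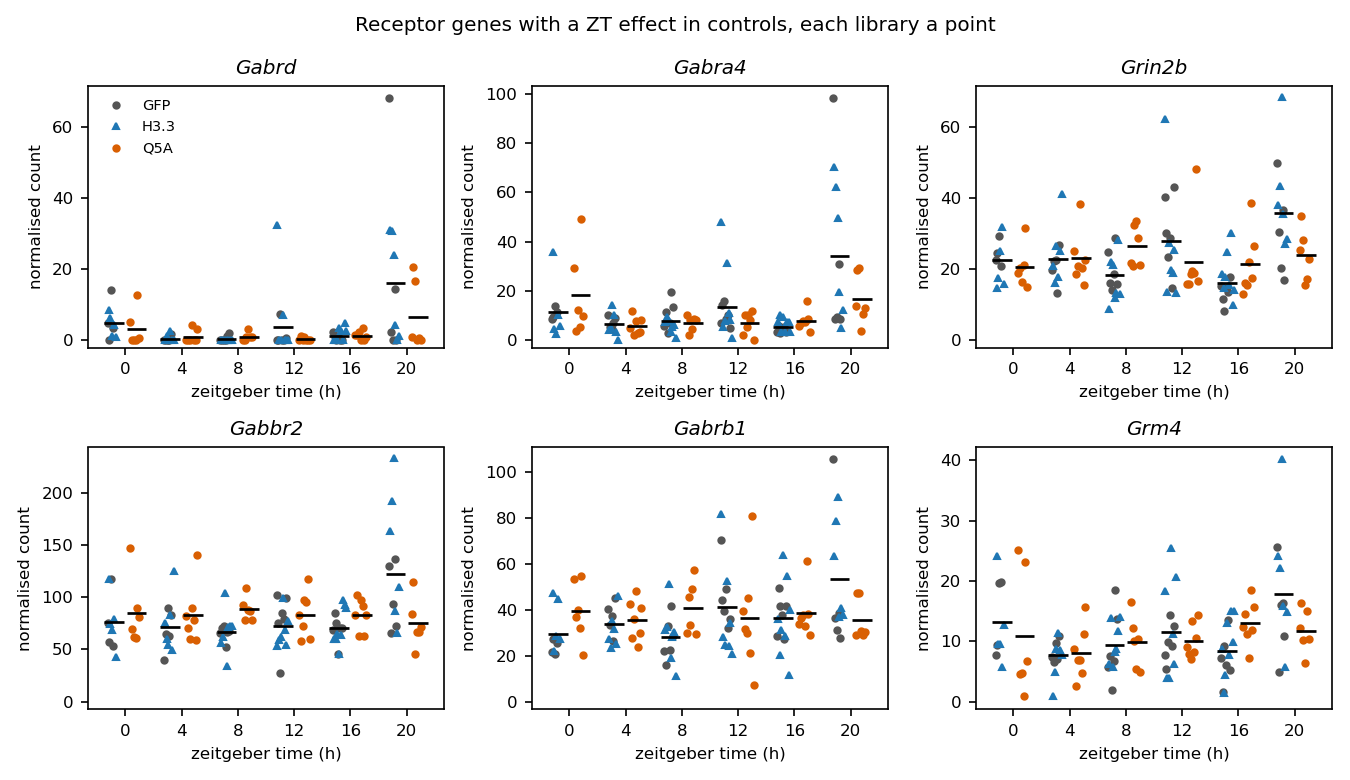
Normalised count of the 6 receptor genes with a ZT effect in controls by zeitgeber time in hours; each point is 1 library, grey circles GFP, blue triangles H3.3 and orange circles Q5A, and black bars are the means of controls (left at each ZT) and of Q5A (right). A few control libraries at ZT20 lie far above the rest, for Gabrd up to 68, while others of the same group lie among the values of the other times.

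The starts of Gabra4, Gabrb1 and Gabbr2 are shown because the first pair face each other on chromosome 5 and all 3 genes were in the called group; RefSeq promoters of Gabrd, Grin2b and Grm4 were not used here. Each is 250 bases before to 50 bases after the RefSeq start site in GRCm38.p6, 5′ to 3′ on the strand of the gene, and capitals mark the GC box GGGCGG read on either strand: Gabra4 at chr5:71658259-71658558 (minus), Gabrb1 at chr5:71657671-71657970 (plus) and Gabbr2 at chr4:46991665-46991964 (minus).
Gabra4: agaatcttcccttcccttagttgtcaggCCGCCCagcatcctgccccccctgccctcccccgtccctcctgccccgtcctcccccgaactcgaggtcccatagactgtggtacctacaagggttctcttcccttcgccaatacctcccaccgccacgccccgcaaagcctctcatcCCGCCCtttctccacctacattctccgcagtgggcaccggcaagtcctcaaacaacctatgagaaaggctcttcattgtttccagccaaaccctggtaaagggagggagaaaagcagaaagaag
Gabrb1: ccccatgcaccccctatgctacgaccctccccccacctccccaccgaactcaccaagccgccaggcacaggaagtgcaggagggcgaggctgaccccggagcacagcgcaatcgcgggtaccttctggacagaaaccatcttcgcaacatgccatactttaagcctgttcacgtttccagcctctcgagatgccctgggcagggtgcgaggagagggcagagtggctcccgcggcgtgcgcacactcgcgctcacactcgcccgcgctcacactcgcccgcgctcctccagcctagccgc
Gabbr2: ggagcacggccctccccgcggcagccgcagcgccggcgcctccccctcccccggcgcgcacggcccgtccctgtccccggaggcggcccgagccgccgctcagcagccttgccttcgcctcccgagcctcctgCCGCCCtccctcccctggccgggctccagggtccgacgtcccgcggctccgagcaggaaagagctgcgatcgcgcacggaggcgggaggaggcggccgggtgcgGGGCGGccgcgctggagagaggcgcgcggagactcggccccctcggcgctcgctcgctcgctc
The windows hold 58.7%, 66.0% and 80.3% G and C. Gabra4 and Gabbr2 each have 2 GC boxes, and Gabrb1 has none in this window. Over the 32 receptor genes with a promoter entry, 18 (56.2%) hold a GC box, where 35.7% of 32851 promoters of the same length do. The E-box CACGTG bound by the clock factors is in 1 of the 32 (Grin1) and in 7.15% of all promoters, and the cAMP response element TGACGTCA is in 0 of the 32 and in 1.79% of all.

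The ZT20 values of these 6 genes were not spread evenly over the 11 control libraries, and rows of another brain region moved with them. Thalamic relay neurons were followed by 8 marker rows (Prkcd, Tcf7l2, Lef1, Ntng1, Rora, Tnnt1, Plcb4 and Gbx2), a list made after the receptor values had been seen. The normalised counts of these 8 summed to a median of 110.6 over the 110 libraries, and 4 libraries lay over 5 times that level, all at ZT20 and all in cohort 1: GFP replicate 1 (994) and H3.3 replicates 3 (744), 1 (688) and 2 (668). Among the Q5A libraries the highest sum was 474, in a library of ZT0, and at ZT20 it was 373. No marker of the 8 had a median of 0 reads.

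The same 4 libraries had the 4 highest ZT20 values of Gabrd, Gabra4, Grin2b, Gabrb1 and Grm4 among controls. Gabrd stood at 68, 23.9, 31.1 and 30.8 in them (in the order of the sums above) and at 0 to 14.4 in the other 7 ZT20 control libraries. Gabra4 stood at 98.2, 49.6, 70.3 and 62.3, against 4.91 to 30.8. Grin2b stood at 49.9, 68.4, 38.0 and 43.4, against 16.9 to 36.6, a narrow gap. Gabrb1 stood at 106, 89.1, 63.4 and 78.9, against 27.8 to 40.9. Gabbr2 was at 130, 233, 164 and 192, against 65.4 to 137, so for this gene the groups overlap. Grm4 was at 25.7, 40.2, 24.2 and 22.1, against 4.86 to 16.4. Prkcd, a kinase abundant in thalamic relay cells, was at 210, 186, 130 and 120 in the 4 and at 1.21 to 49.1 in the rest.

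Without these 4 libraries 0 of the 41 receptor genes passed in edgeR, with 6 at an unadjusted p under 0.05, and 0.745% of 13549 genes passed. The adjusted p was then 0.0591 for Gabrd, 0.0723 for Grin2b, 0.13 for Gabra4, 0.369 for Gabrb1, 0.435 for Grm4 and 0.628 for Gabbr2. Without all ZT20 libraries 0 of 39 tested receptor genes passed as well (5 at an unadjusted p under 0.05). Of the thalamic markers themselves 6 of 8 passed in all controls (Prkcd at an adjusted p of 1.12e-09) and 1, Prkcd, without the 4 libraries. Other marker rows that varied with ZT in all controls were Hdc and Slc18a2 of 5 histaminergic rows tested, Snap25 and Syt1 of 5 neuronal rows, 1 of 6 oligodendrocyte rows and Penk, Ppp1r1b and Rgs9 of 6 striatal rows. The part of any of these rows in the result was not tested.

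Left out singly, no control library ended the call of Gabrd, Gabra4 or Grin2b (highest adjusted p 0.00898). Gabbr2 lost its call without H3.3 ZT20 cohort 1 replicate 3 (adjusted p = 0.0543), and Gabrb1 lost its call without any 1 of the 4 libraries named above (highest 0.1). Grm4 lost its call without any 1 of 17 libraries (highest 0.148), which are those 4, GFP ZT20 replicates 3 and 4, GFP ZT0 replicates 3 and 4, GFP ZT8 replicate 4, H3.3 ZT4 replicates 1 and 2, H3.3 ZT8 replicates 1 and 4 and H3.3 ZT16 replicate 3 of cohort 1, and H3.3 ZT0 replicate 1, H3.3 ZT4 replicate 1 and GFP ZT16 replicate 2 of cohort 2. Within cohort 1 (52 control libraries), which holds the 4, 10 of 38 receptor genes passed, among them the 6, Gabbr1 and Grm7, and 12.7% of all genes passed there. Without the 4 libraries of high striatal or pituitary rows 7 passed, with the 6 among them, as did 7.20% of all genes.

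**Figure D3:**
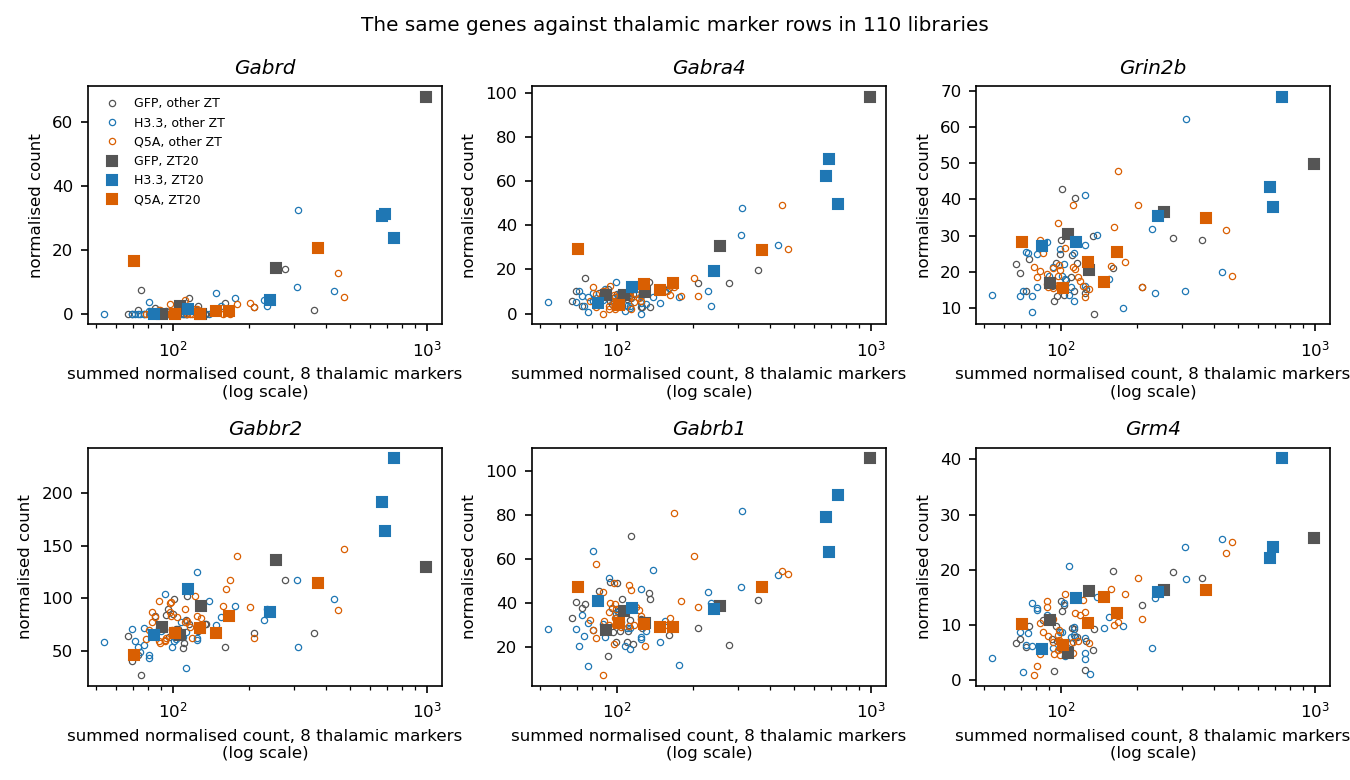
Normalised count of the 6 genes against the summed normalised count of 8 thalamic marker rows (log axis) in 110 libraries; filled squares are ZT20 and open circles the other times, grey GFP, blue H3.3 and orange Q5A. The 4 squares at sums of 668 to 994 hold the highest ZT20 control values of Gabrd, Gabra4, Grin2b, Gabrb1 and Grm4, and Q5A ZT20 replicate 3, with Gabrd at 16.7 at a sum of 70.5, lies away from them.

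High Gabrd was also seen in some, but not all, libraries of high striatal rows. Q5A ZT20 cohort 1 replicate 3 had Gabrd at 16.7 and Gabra4 at 29.5 with a thalamic sum of 70.5, and its sum of 7 striatal marker rows was 1392, the highest of all libraries. H3.3 ZT12 cohort 1 replicate 1 had Gabrd at 32.5, Gabra4 at 48.1 and Grin2b at 62.2, the highest value of each at its ZT in controls, with a striatal sum of 917 and a thalamic sum of 312. Over all controls the median striatal sum was 95.9.

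The time of the highest mean was counted over all 41 receptor genes. In controls 20 of the 41 (48.8%) had it at ZT20, where 23.9% of 18313 genes did. Without the 4 libraries 8 did (19.5%, all genes 14.6%), and 17 had it at ZT12 (41.5%, all genes 19.5%). In the GFP libraries alone 23 of 41 (56.1%) were highest at ZT12 (all genes 32.9%), in H3.3 alone 26 (63.4%) at ZT20 (all genes 28.9%), and in Q5A 12 at ZT8, 10 at ZT12 and 5 at ZT20 (all genes 15.5%, 17.0% and 19.2%). Against the mean of the other times, the median receptor gene at ZT20 stood 0.45 higher in H3.3 on the log2 scale, 0.18 higher in H3.3 without the 3 libraries of that virus, and 0.08 lower in GFP and in Q5A. The median of all genes stood at 0.02 in H3.3, at -0.04 in H3.3 without those 3 libraries, and at -0.04 in GFP and in Q5A.

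**Figure D4:**
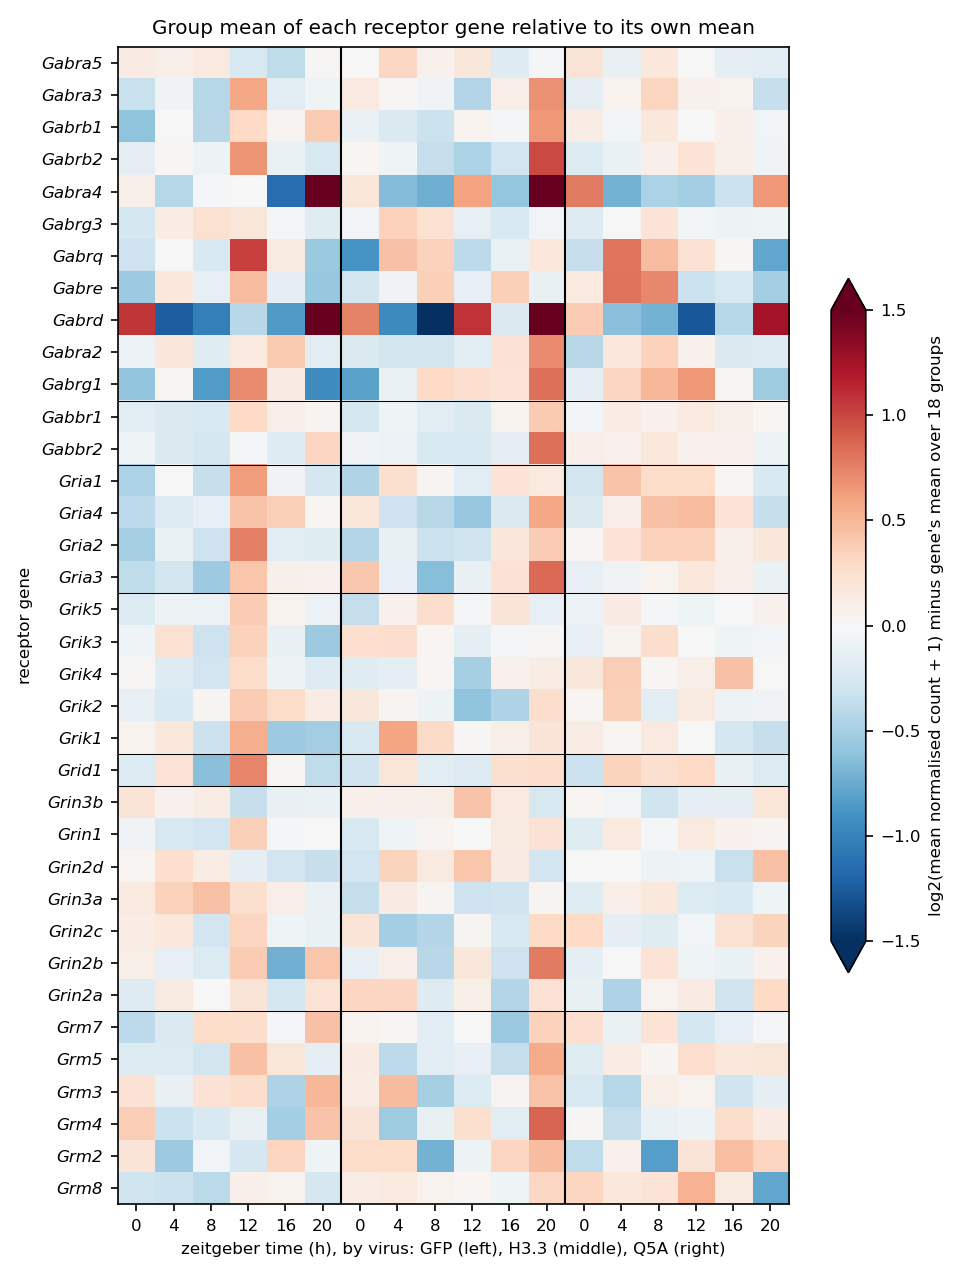
Group mean of each of 36 receptor genes as log2(mean normalised count + 1) minus the mean of the gene over the 18 groups, by zeitgeber time within GFP, H3.3 and Q5A, with receptor classes set apart by lines; red is above the mean of the gene and blue below, and the scale is cut at ±1.5. Many rows are red at ZT12 in GFP, where 23 of all 41 genes had their highest mean, and at ZT20 in H3.3, where 26 did.

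In the Q5A animals the same test found 0 of 36 receptor genes with a ZT effect in edgeR, against 0.188% of 11706 genes, and 5 had an unadjusted p under 0.05. DESeq2 also called 0. With the filter on low counts the smallest adjusted p in edgeR was that of Gabra4 (0.275), then Gria1 (0.433) and Gabre (0.476). Without that filter edgeR called Gabra4 (adjusted p = 0.000277), Gabrd (0.00166), Gabrq (0.0164) and Gabre (0.02). The 0 thus depends on the filter. No share of all genes stands beside the calls without a filter or the unadjusted count, so neither sets the receptor genes apart. Gria1 ran from 75.9 ± 31.4 at ZT0 to 124 ± 41.8 at ZT4 (n = 6 and 7), with overlapping libraries (41.0 to 126 and 76.4 to 177), and stood at 78.4 ± 15.5 at ZT20. Gabre, the epsilon subunit, ran from 5.02 ± 2.12 at ZT20 to 14.1 ± 9.01 at ZT4. Its libraries at ZT20 (2.56 to 7.52) lay below those at ZT4 (7.73 to 27.9) and ZT8 (9.99 to 21.1). An effect past the threshold in controls and not in Q5A is no test of their difference, and there were fewer Q5A libraries.

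That difference was tested as the terms by which a 24 h cosine curve differed between Q5A and controls. Of the 41 receptor genes 0 passed in edgeR, with 8 at an unadjusted p under 0.05, and 0.122% of 13891 genes passed. No share of all genes stands beside the 8, so that count does not set the receptor genes apart. DESeq2 called 0. Gria4, the AMPA subunit typical of fast firing cells, had the smallest p (0.00107, adjusted 0.204). Its fitted curve peaked at ZT18.6 in controls and at ZT10.1 in Q5A, with log2 amplitudes of 0.29 and 0.43. Control means of Gria4 ran from 13.8 ± 4.58 at ZT8 to 21.9 ± 11.98 at ZT20, and Q5A means from 13.1 ± 3.92 at ZT20 to 23.6 ± 12.3 at ZT12. Gabra2, an alpha subunit of synaptic GABA-A receptors, had an adjusted p of 0.257. At ZT20 Gabra2 stood at 9.03 ± 6.05 in controls and 5.72 ± 3.02 in Q5A, with libraries of 1.51 to 21.3 and 0.945 to 10.2 that overlapped. Without the 4 libraries of high thalamic rows 3 of 41 had an unadjusted p under 0.05.

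Rhythms were also scored by JTK_CYCLE, a rank test against curves of 8 to 24 h whose adjusted p (under 0.05) covers the curves tried for 1 gene and not the number of genes. In controls 7 of 41 receptor genes passed, against 11.5% of 18313 genes. Among them were Gabrd (adjusted p = 0.00363, 24 h, peak ZT20), Grin2b (0.0143, 8 h), Gria3 (0.0296, 24 h, peak ZT20), Grin1 (0.0312, 24 h, peak ZT16), Gabra5 (0.0387, 24 h, peak ZT4) and Gabbr1 (0.0461, 24 h, peak ZT18). None of the 7 had a Benjamini-Hochberg q under 0.05 over all genes, and the lowest q was 0.129. Only Gabrd and Grin2b were also among the 6 above.

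Gabra5, an alpha subunit of extrasynaptic receptors, was highest at ZT4 (54.2 ± 17.4, n = 11) and lowest at ZT16 (38.5 ± 16.04, n = 14), with libraries of 24.02 to 85.8 and 18.2 to 75.7 that overlapped widely. Grin1 was lowest at ZT0 (117 ± 17.7) and highest at ZT12 (148 ± 40.3), and Gabbr1 was lowest at ZT0 (149 ± 22.8) and highest at ZT20 (206 ± 60.3). Gria3, an AMPA subunit, ran from 5.97 ± 3.28 at ZT8 to 14.4 ± 7.61 at ZT20. Without the 4 libraries of high thalamic rows 3 of 41 passed, with Grin1 and Gabra5 among them, where 8.23% of all genes did.

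In Q5A 1 of 41 passed in JTK_CYCLE, Gabre (adjusted p = 0.0309, 24 h, peak ZT6), against 2.54% of all genes. Gria4 (0.0572) and Grid1 (0.111) came next. In GFP alone 3 passed against 7.34% of all genes, with Grin2d (24 h, peak ZT4) among them. In H3.3 alone 3 passed against 4.10%, Gabrd and Gria3 (both 24 h, peak ZT20) and Gria4 (20 h). Without the 3 H3.3 libraries of high thalamic rows 0 were left, where 1.25% of all genes passed. The lists of single viruses share libraries with that of the controls.

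Over all ZT the mutant histone moved no receptor gene past the threshold. For Q5A minus controls 0 of 41 passed at an adjusted p under 0.01 in edgeR, with 2 at an unadjusted p under 0.05, against 0.0144% of 13891 genes called, and DESeq2 called 0. Grik4, a high affinity kainate subunit, had 10.02 ± 3.8 in 39 Q5A libraries and 8.12 ± 3.79 in 71 controls (log2 difference 0.29 ± 0.13 SE, adjusted p = 0.847). Gria2 had 45.3 ± 17.7 and 38.5 ± 18.5 (0.26 ± 0.12). Grm3, a metabotropic receptor found on glia and neurons, had 5.87 ± 3.35 and 7.17 ± 4.02 (-0.27 ± 0.17). In all 3 the ranges of the groups lay largely over each other.

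For H3.3 minus GFP over all ZT 0 of 41 passed, as did 0.00% of 13264 genes, with 1 receptor gene at an unadjusted p under 0.05 and 0 called by DESeq2. That gene was Grin3a, an NMDA subunit that lowers calcium entry, at 26.9 ± 8.59 in H3.3 and 34.0 ± 10.6 in GFP (log2 difference -0.34 ± 0.11 SE, adjusted p = 1 in edgeR). Its libraries ran from 6.55 to 43.9 and from 19.2 to 65.3. Grin2d (0.17 ± 0.10) and Grik2 (-0.27 ± 0.16) came next.

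At single times 0 receptor genes passed at an adjusted p under 0.01 in edgeR in any of the 12 comparisons of H3.3 with GFP or of Q5A with controls, and 0.00% of the genes passed in each. The paper used DESeq2 at the same limit and reports genes that differed between GFP and H3.3, most of them at ZT12. The count at an unadjusted p under 0.05 was 0 to 2 in 8 of them and higher in 4. DESeq2 called 1, Gabrb2 in H3.3 minus GFP at ZT12 (adjusted p = 0.0095).

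That comparison had the most. At ZT12 16 of 32 receptor genes tested had an unadjusted p under 0.05, 15 of them lower in H3.3, where 29.4% of 9774 genes were under that limit. The median log2 difference was -0.58 for the receptor genes and -0.08 for all genes. Gabrb2, a beta subunit of synaptic GABA-A receptors, had 17.2, 20.2 and 31.2 as lowest, median and highest of 6 GFP libraries and 6.71, 9.05 and 11.3 of 7 H3.3 libraries (log2 difference -1.30 ± 0.26 SE, adjusted p = 0.07). Its libraries did not overlap between the groups, which held for this gene alone among the 41 at ZT12 and for 0.950% of 18313 genes. Gria2 (-1.16 ± 0.31), Grid1 (-1.06 ± 0.28), Gria1 (-0.90 ± 0.26) and Gabbr1 (-0.62 ± 0.20) had the same sign, each with an adjusted p of 0.07 to 0.0806. The Grin3b row, which overlaps Tmem259, had the opposite sign (0.72 ± 0.22). The summed level of 5 neuronal marker rows ran from 614 to 1190 in GFP and from 456 to 990 in H3.3 at ZT12 (medians 837 and 560), with 3 of the 5 at an unadjusted p under 0.05. Other marker lists moved there as well, with 3 of 6 astrocyte, 2 of 3 microglial, 2 of 4 thalamic and 1 of 1 lateral hypothalamic rows tested under that limit. Median sums in GFP and H3.3 were 529 and 336 for the astrocyte list, 251 and 341 for the microglial list and 127 and 20.8 for the lateral hypothalamic list, and the part of these rows in the difference was not tested. Without the libraries of high striatal or pituitary rows 20 of 34 receptor genes were under 0.05 (40.7% of all genes), 18 of them lower.

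At ZT20 the difference had the other sign, with 9 of 32 genes at an unadjusted p under 0.05, all higher in H3.3, where 13.4% of 9323 genes were under that limit. Gabrb2 again had the smallest p, at 27.1 ± 19.1 in H3.3 and 11.02 ± 4.47 in GFP (log2 difference 1.36 ± 0.46 SE, adjusted p = 0.333), with libraries of 9.45 to 52.1 and 6.07 to 17.1. The median difference over the receptor genes was 0.45, and 0.03 over all genes. Without the 4 libraries of high thalamic rows, 3 of them H3.3, the median was 0.08 and 1 gene was under the limit. The neuronal rows summed to medians of 940 in H3.3 and 755 in GFP at ZT20, with 1 of 5 at an unadjusted p under 0.05. Of other rows tested, 2 of 6 astrocyte and 1 of 8 thalamic rows were under that limit. So were 1 of 2 histaminergic, 1 of 2 lateral hypothalamic and 1 of 1 pituitary rows. The part of these rows in the difference was not tested.

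For Q5A minus controls the higher counts were at ZT8 and ZT20. At ZT8 12 of 32 receptor genes had an unadjusted p under 0.05, 11 of them higher in Q5A, where 18.1% of 10251 genes were under that limit. Gria4 had the smallest p, with lowest, median and highest of 11.5, 22.4 and 33.5 in 6 Q5A libraries and 7.49, 12.7 and 21.3 in 13 controls (log2 difference 0.79 ± 0.24 SE, adjusted p = 0.188). The upper part of the Q5A group lay above all controls. Gabbr2 (0.43 ± 0.15), Grid1 (0.66 ± 0.24), Grin2b (0.57 ± 0.22) and Gabrb1 (0.58 ± 0.23) had the same sign. The Grin3b row, which overlaps Tmem259, had the opposite sign (-0.37 ± 0.15). The median was 0.29 for the receptor genes and 0.02 for all genes. The neuronal rows summed to a median of 744 in Q5A and 563 in controls at ZT8, with 0 of 5 under the limit. Under it were 2 of 6 astrocyte rows (median sums 447 and 323), 1 of 2 lateral hypothalamic rows (222 and 74.7), 1 of 3 microglial rows (243 and 302), 1 of 6 oligodendrocyte rows and 1 of 5 thalamic rows, whose part was not tested.

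At ZT20 9 of 33 were under the limit (11.2% of 10008 genes), 8 of them lower in Q5A, and the median was -0.33 against -0.01 for all genes. Gabbr2 stood at 75.1 ± 22.9 (n = 6) against 122 ± 55.0 (n = 11), a log2 difference of -0.72 ± 0.27 SE (adjusted p = 0.396). Of the marker rows, 5 of 8 thalamic, 3 of 5 striatal and 2 of 5 neuronal rows tested were under the limit, and their part was not tested. Without the 4 libraries of high thalamic rows 0 of 34 receptor genes were under the limit and the median was -0.11. Grin2d was the gene that stood higher in Q5A (0.72 ± 0.28), at a median of 64.5 in 6 libraries of which 1 was at 301, in the library of high striatal rows named above. At other single times the smallest p belonged to Gria2 (ZT0), Gabre (ZT4, 0.84 ± 0.33, adjusted p = 0.437) and Gabra4 (ZT12) for Q5A minus controls. For H3.3 minus GFP it belonged to Gria3 (ZT0, 0.89 ± 0.41, adjusted p = 0.89), Grm3 (ZT4), Grin1 (ZT8) and Grik2 (ZT16).

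**Figure D5:**
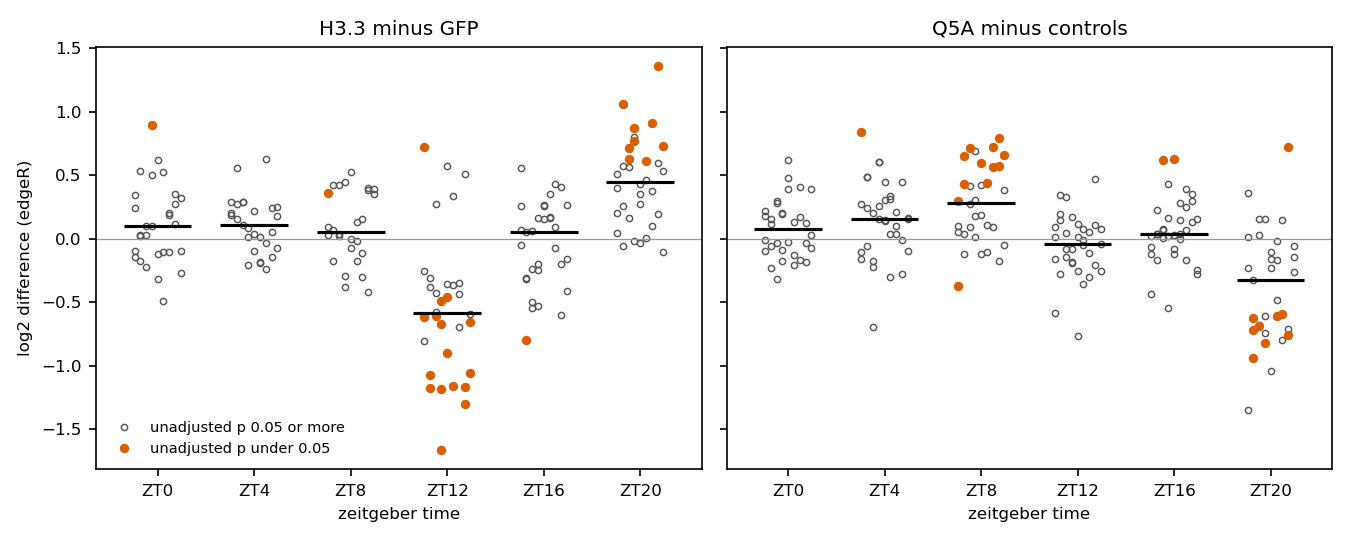
Log2 difference (edgeR) of each receptor gene tested between H3.3 and GFP (left) and between Q5A and controls (right) at each zeitgeber time; filled points have an unadjusted p under 0.05 and bars are medians. The medians leave 0 most at ZT12 (-0.58) and ZT20 (0.45) for H3.3 minus GFP, and at ZT8 (0.29) and ZT20 (-0.33) for Q5A minus controls.

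The other genes of the same synapses were taken from a list of 41 auxiliary subunits and scaffolds, among them TARPs, cornichons and Shisa proteins of AMPA receptors, Neto proteins of kainate receptors, gephyrin and its partners, KCTD subunits of GABA-B receptors, and the Dlg, Shank and Homer scaffolds. In the ZT effect of controls by edgeR 4 of 40 passed, where 5.00% of 13264 genes did: Shank3 (adjusted p = 0.00152), Cnih3 (0.0318), Homer2 (0.0329) and Nsf. Without the 4 libraries of high thalamic rows 0 of 40 passed, with 3 at an unadjusted p under 0.05, where 0.745% of 13549 genes passed. Shank3, a scaffold of excitatory synapses, stood at 104 ± 64.5 at ZT20 in controls (31.9 to 203) and at 60.9 ± 28.4 at ZT0. Cnih3, a cornichon, stood at 9.37 ± 5.88 and 4.08 ± 3.16 at these times. In every other comparison by edgeR 0 of the list passed, and 0 to 11 had an unadjusted p under 0.05. The 11, of 31 tested, were in H3.3 minus GFP at ZT12, where 29.4% of all genes were under that limit. In JTK_CYCLE 3 of the 41 passed in controls (Homer2, Nlgn2 and Nsf), where 11.5% of all genes did, 1 in Q5A (Cbln1, all genes 2.54%), 2 in GFP (Gphn and Lhfpl4, all genes 7.34%) and 1 in H3.3 (Homer3, all genes 4.10%).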

How the data were processed

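RNA was sequenced from dissected TMN tissue of single mice after a stranded mRNA ligation kit. Per the labels and the methods of the study, the authors aligned reads with STAR 2.7.11b to GRCm38 and used HTSeq 2.0.5 with the stranded setting yes to count reads over exons by gene name, and the deposited values are raw counts. Read 1 of that kit runs against the transcript, so the gene rows hold reads of the opposite orientation, a small share of all reads. The rows for unassigned reads were kept out of all totals and tests.

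The 111 deposited libraries were grouped by their sample labels, and 18 further files of no sample were not used. The pair of Q5A libraries at ZT4 (cohort 2, replicates 2 and 3) that differed by less than sampling noise was averaged. For normalised counts each count was divided by its library size factor (median of ratios). Tests used edgeR 4.0.16 in R 4.3.3 (TMM, filterByExpr with a minimum count of 10 and minimum total of 15, quasi-likelihood F test, Benjamini-Hochberg adjustment over all genes), with adjusted p under 0.05 for ZT effects and rhythm differences and under 0.01 between viruses, as in the study. Alternatives were DESeq2 1.42.0, other filters and scaling, the cohorts, a replicate block and left-out libraries. JTK_CYCLE was rewritten in Python 3.11.15 with exact null distributions and 20 curves for genes with a mean of at least 1 read. Each procedure was tested on simulated data. Exon positions are from the GENCODE annotation of GRCm38. Values in a group are mean ± SD. P-values measure the spread between animals.

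The members, the lists of other genes and the alternatives were chosen with earlier results of these data known, and the thalamic list after the receptor values were seen. Values by ZT were given in full for genes past a threshold, the 3 of smallest p in each comparison over all ZT, and the most abundant gene of each class by its level. At single times the gene of smallest p was named, with others at an unadjusted p under 0.05 added after their values were seen. Some genes are not reported here by name, though counts over the receptor genes include them.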

Additional observations from a re-analysis of the deposited data

Results flagged for a closer look

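In groups of 4 to 10 libraries the highest or lowest library was set against the range of its group (Dixon's test at the 95% level) for part of the named receptor genes. Of 91 groups 14 had such a library. The test gives about 1 in 20 for independent groups of normally distributed values. Here some libraries recur for different genes and some values are low counts, so whether 14 exceeds chance was not tested. Most lay in Q5A, where each ZT had few enough libraries to be examined. In Q5A ZT12 the library of cohort 2 replicate 1 was the highest for Gria4 (normalised count 49.9, others 11.3 to 23.9) and Grin2b (48.0, others 15.8 to 19.5). In Q5A ZT4 the library of cohort 3 replicate 1 was the highest for Gabbr2 (140, others 59.2 to 89.9) and Gria4 (43.2, others 9.29 to 18.1), and cohort 1 replicate 4 for Grin2b (38.3, others 15.5 to 25.1).

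In Q5A ZT16 cohort 2 replicate 1 was the highest for Gabra4 (15.9, others 3.31 to 8.73) and Gabrb1 (61.2, others 28.9 to 38.1), and cohort 1 replicate 4 for Gria3 (23.8, others 5.58 to 11.4). In Q5A ZT8 cohort 1 replicate 4 was the highest for Gabre (21.1, others 9.99 to 13.6) and Gabrd (3.12, others 0 to 0.833), and cohort 1 replicate 1 the lowest for Grin1 (107, others 127 to 138). In Q5A ZT20 cohort 1 replicate 3 was the highest for Grin2d (301, others 50.1 to 94.0), and it is the library with the striatal sum of 1392. In Q5A ZT0 cohort 1 replicate 1, whose thalamic sum was 474, was the highest for Gabbr2 (147, others 61.0 to 89.3). In controls at ZT0 H3.3 cohort 1 replicate 1, whose thalamic sum was 308, was the highest for Gabra4 (35.7, others 2.4 to 14.0).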

How the results depend on the processing

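The 6 calls of the ZT effect in controls numbered 6 with another scaling and with no filter on low counts, and 7 by DESeq2, with the cohort as a covariate and without the libraries of high striatal or pituitary rows, and the count ran from 2 to 8 with 1 replicate number or library left out. It was 10 in cohort 1, 0 without the 4 libraries of high thalamic rows and 0 without ZT20, where Gabrd no longer passed the filter. Over all genes the count was 663, against 1134 by DESeq2, 1070 with the block 1521 in cohort 1, 125 without ZT20 and 101 without the 4 libraries of high thalamic rows. The ZT effect in Q5A (0) gave 4 calls without a filter (Gabra4, Gabrd, Gabre and Gabrq) and 1 in cohort 1, and over all genes 22, against 68 by DESeq2 and 609 in cohort 1. The count over all genes without a filter is not given. The rhythm difference (0) gave 1 call in cohort 1 and 1 with H3.3 alone as control, and over all genes 17, against 777 in cohort 1. DESeq2 made 1 call in H3.3 minus GFP at single times (main 0). The virus comparisons over all ZT kept 0 under each alternative.

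The JTK_CYCLE counts depended most on the setting. With a Benjamini-Hochberg q they were 0 in controls, Q5A, GFP and H3.3. In cohort 1 they were 3, 4, 1 and 1, where 9.84%, 5.89%, 4.52% and 5.24% of all genes passed. With tied points of a curve merged controls had 10 (all genes 15.2%), Q5A 3 (4.49%), GFP 6 (12.55%) and H3.3 4 (7%). Without the libraries of high striatal or pituitary rows Q5A had 0 (all genes 2.06%). Without those of high thalamic rows controls had 3 (8.23%) and H3.3 had 0 (1.25%). With 1 replicate number left out the counts ran from 0 to 7 in controls, 0 to 1 in Q5A, 0 to 2 in GFP and 1 to 3 in H3.3.

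The causes were not tested beyond the libraries left out. The labels do not say whether libraries of the same replicate number share a litter or day. Deviations of libraries of the same cohort and number had a median correlation of 0.036 over 91 pairs, against -0.018 over 585 other pairs. The replicate block was therefore kept as an alternative. It gave 6 calls for the ZT effect in controls and 0 for the ZT effect in Q5A, the rhythm difference and the virus comparisons. Counting error is relatively largest in the 17 genes with means under 10 reads.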
